A study of Mus musculus with 16 samples.

Results

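The interferon-stimulated genes of cultured mouse male germline stem cells were examined in 12 RNA libraries. Interferons signal through cell-surface receptors, JAK kinases and STAT proteins to the nucleus, where STAT and IRF proteins switch on several groups of genes. These groups are sensors of foreign nucleic acid, oligoadenylate synthetases (OAS), ubiquitin and ADP-ribose enzymes that adjust the response, antiviral effectors, and GTPases that act at the compartments of intracellular pathogens. The genes were taken from a list of 42 symbols that was drawn up with earlier results of these libraries known, in which many of the genes stood high in one experiment, so their levels in that contrast are given as a description. Of the 42 symbols, 38 were found among the 27128 genes of the tables, and 36 of those passed the filter of a mean of at least 1 CPM (counts scaled to a common library size) over the 12 libraries. The 2 found but under the filter were Mx1 and Ifi205. The 4 symbols not found (Dhx58, Irf9, Cmpk2 and Xaf1) have rows under other symbols by their transcripts (D11Lgp2e, Isgf3g, Tyki and Fbxo39), and those rows were kept apart from the counts below.

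All libraries came from germ cells of B6;CBA-Tg(Pou5f1-EGFP)2Mnn/J mice, which carry GFP under control of the Pou5f1 (Oct4) promoter. Donors were at postnatal day 5.5, cells positive for Oct4-GFP and negative for KIT were sorted, and cultures received GDNF, bFGF and EGF in StemPro-34 serum-free medium. In the feeder-removal experiment, 1 library came from cells on mouse embryonic fibroblast (MEF) feeders (day 0), and 1 each from cells moved to Matrigel, a basement membrane extract, 4 and 9 days earlier. In the Matrigel density experiment, the coating was 0.1 µg/cm2 for the culture called epithelial-like (the low density) and 10 µg/cm2 for that called mesenchymal-like (the high density). In the sorting experiment, cells on Matrigel at 10 µg/cm2 were parted by flow cytometry into 3 fractions with low, mid and high GFP. In the inhibitor experiment, cells on MEF feeders received 0.5, 1 or 2 µM UNC0638, an inhibitor of the histone methyltransferases G9a and GLP, for 48 hours. Others on MEF feeders received the solvent DMSO, for which no time is recorded. With 1 library in each group, there is no spread between replicates to set a difference against, and none is tested. Cultures on MEF feeders can hold fibroblast RNA, the labels do not say whether groups came from separate cultures, and the experiment and any batch cannot be told apart.

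Germ cell markers had reads in every library: Ddx4, an RNA helicase of the germ line, lay between 416 and 870.4 CPM, and Dazl, a germline RNA-binding protein, between 1434 and 2047 CPM. The summed level of 12 germ cell markers ran from 3816 CPM in the mesenchymal-like library to 5947 CPM in GFP-low. Library totals ran from 4335185 to 12019651 expected counts, so the floor of 3 counts was 0.238 to 0.724 CPM. A gene with 0 counts in a library may lie anywhere up to that floor. The summed level of 16 fibroblast markers was 207 to 245 CPM in the feeder-removal libraries, 264 in the epithelial-like, 5332 in the mesenchymal-like, 89.4 to 207 in the GFP fractions, 2631 with DMSO and 366 to 873 with UNC0638. The summed level of 14 myeloid markers was 1955, 1737 and 229 CPM in GFP-low, GFP-mid and GFP-high, 23.5 and 47.1 at low and high Matrigel density, and at most 15.6 in the others. In bulk RNA, fewer cells of a type and less RNA per cell cannot be told apart.

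Promoter sequence was available from RefSeq (assembly GRCm38.p6) for 27 of the 38 genes. The windows reach from 250 bases before to 50 bases after each annotated start, and the motif searched was GAAA, 2 bases of any kind and GAAA, the core of the interferon-stimulated response element, on both strands. It was present in 16 of the 27 genes (59.3%) and in 1079 of 27025 genes in the table (3.99%). By role, 4 of 4 sensors, 2 of 4 OAS genes, 1 of 2 transcription factors, 1 of 3 feedback genes, 5 of 11 effectors and 3 of 3 GTPases had it. The motif TTCNNNGAA, the core of the gamma-activated site, was present in 8 of the 27 genes (29.6%) and in 9.55% of genes in the table. Of 6 pairs in which both motifs lay in 1 window of these genes, 1 overlapped. A match is a description of letters, not a binding site. The 250 bases upstream of the start are shown for the 4 genes with the motif that had the highest level at day 0, in order of that level, because they cover an effector, 2 GTPases and an OAS enzyme. Capitals mark matches on either strand, and each sequence reads 5′ to 3′ on the strand of its gene.
Bst2, chr8:71537473-71537722, minus strand: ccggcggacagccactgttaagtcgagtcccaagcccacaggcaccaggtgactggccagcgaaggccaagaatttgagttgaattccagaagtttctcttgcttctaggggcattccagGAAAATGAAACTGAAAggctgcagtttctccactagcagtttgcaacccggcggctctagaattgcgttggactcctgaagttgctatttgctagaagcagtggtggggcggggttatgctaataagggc
Igtp, chr11:58199306-58199555, plus strand: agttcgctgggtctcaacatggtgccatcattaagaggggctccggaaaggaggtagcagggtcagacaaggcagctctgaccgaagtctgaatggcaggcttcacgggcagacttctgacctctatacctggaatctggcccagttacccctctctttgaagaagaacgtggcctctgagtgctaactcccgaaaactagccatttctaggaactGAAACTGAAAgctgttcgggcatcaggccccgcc
Gbp3, chr3:142559794-142560043, plus strand: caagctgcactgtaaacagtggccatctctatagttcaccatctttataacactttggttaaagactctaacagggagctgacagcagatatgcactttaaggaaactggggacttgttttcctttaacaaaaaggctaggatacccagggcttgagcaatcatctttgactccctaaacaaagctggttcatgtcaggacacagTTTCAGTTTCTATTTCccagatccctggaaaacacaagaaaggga
Oas1a, chr5:120907526-120907775, minus strand: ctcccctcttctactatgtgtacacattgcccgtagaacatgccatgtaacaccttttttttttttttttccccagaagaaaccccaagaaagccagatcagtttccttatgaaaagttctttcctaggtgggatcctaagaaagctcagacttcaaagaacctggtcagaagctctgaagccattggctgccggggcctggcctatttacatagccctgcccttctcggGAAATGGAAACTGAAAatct

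In Bst2, Gbp3 and Oas1a 2 matches overlapped by 4 bases, while Igtp had 1. The first match began 130 bases before the start in Bst2, 34 in Igtp, 45 in Gbp3 and 20 in Oas1a. Gbp3 has another window in the table, without a match. The first match of the next 7 genes by level at day 0 is shown with its flanks, to compare genes of other roles.
Gbp2, chr3:142620594-142620623, plus strand: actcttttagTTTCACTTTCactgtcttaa
Ifit3, chr19:34583363-34583392, plus strand: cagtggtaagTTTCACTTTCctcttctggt
Ifih1, chr2:62646206-62646233, minus strand: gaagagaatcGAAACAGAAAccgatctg
Rsad2, chr12:26456553-26456582, minus strand: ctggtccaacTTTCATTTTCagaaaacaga
Ifit1, chr19:34640775-34640804, plus strand: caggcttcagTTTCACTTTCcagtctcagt
Ddx58, chr4:40239804-40239833, minus strand: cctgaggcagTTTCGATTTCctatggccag
Stat2, chr10:128270266-128270295, plus strand: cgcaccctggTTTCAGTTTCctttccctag

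The matched 10 bases were the same in Gbp2, Ifit3 and Ifit1, a GTPase and 2 effectors. In Ifih1 and Ddx58, the 2 RNA helicase sensors, the match lay after the annotated start. The windows of Irf7, Trim25, Dtx3l, Oasl1, Oasl2, Ifi44 and Lgals3bp had neither motif.

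The summed level of the 38 genes, in TPM, which takes transcript length into account, was 3678, 3859 and 3919 at days 0, 4 and 9 and 245 to 622 in the other 9 libraries. For 33 of the 36 genes past the filter, the lowest of days 0, 4 and 9 lay above the highest of the 9 others, which was so for 14.4% of all 14301 genes tested. For 24 of the 36 the gap was at least 2-fold, against 0.664% of all genes. The 3 genes whose groups overlapped were Ifi203, Trim25 and Lgals3bp. Day 0 and the DMSO library were both on MEF feeders, and 31 of the 36 genes were at least 2-fold lower with DMSO, against 7.22% of all genes, with a median log2 ratio of -2.68 where all genes had 0.01. All these values describe the contrast for which the genes were listed, day 0 being 1 of its 3 high libraries, and several genes passed the filter through those 3 alone, so nothing is read from the counts or the median.

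**Figure D1:**
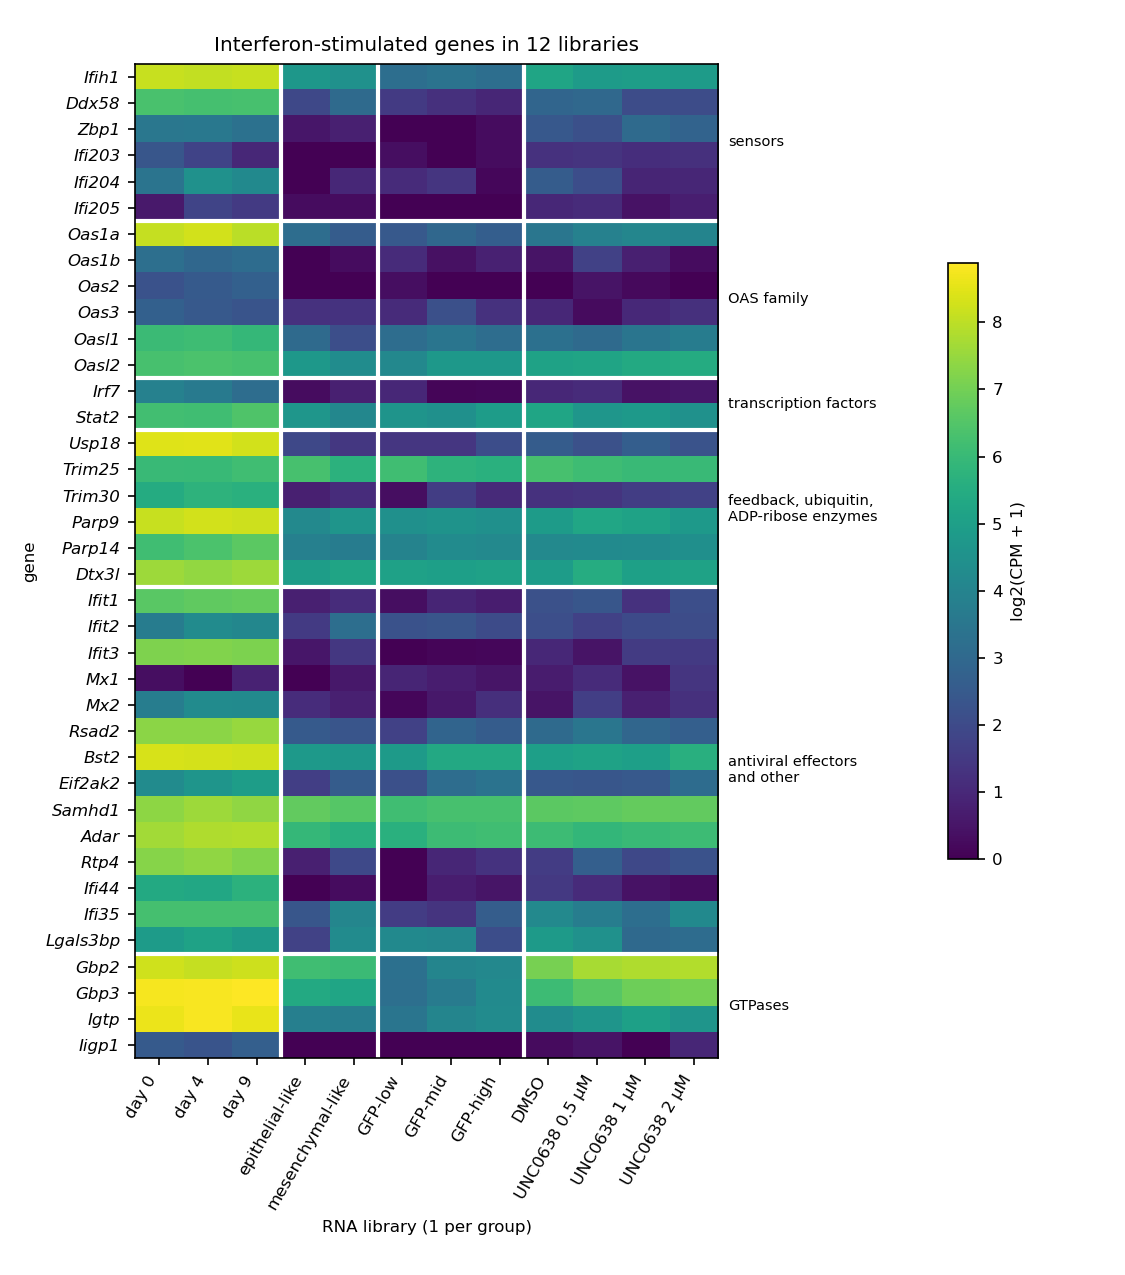
Levels of the 38 genes as log2(CPM + 1), with genes in rows grouped by role and the 12 libraries in columns, white lines separating roles and experiments. The first 3 columns are brighter than the other 9 for most rows; Trim25 and Lgals3bp show no such step, Mx1 and Ifi205 are dark in most columns, and Gbp2 is also bright in the DMSO and UNC0638 columns.

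The nucleic acid sensors ran from a gene with 2162 counts or more in each feeder-removal library to genes near the floor. Ifih1 (MDA5), which binds long double-stranded RNA, was the highest of them by length-scaled level in all 12 libraries. It had 280.3, 268 and 284 CPM at days 0, 4 and 9, 25.1 and 21.7 at low and high Matrigel, 8.28, 9.50 and 8.17 in GFP-low, GFP-mid and GFP-high, and 36.1 with DMSO and 28.1, 29.7 and 28.4 with 0.5, 1 and 2 µM UNC0638. The 3 feeder-removal values were within 1.06-fold of each other, and the lowest of them was 7.43-fold above the highest other, the DMSO library. Ddx58 (RIG-I), which binds RNA with 5′ triphosphate ends, had 79.6, 76.8 and 77.3 CPM at days 0, 4 and 9, 2.82 and 7.48 at the low and high Matrigel density, 1.88, 1.35 and 0.955 across rising GFP, and 6.39, 6.93, 3.14 and 3.21 from DMSO to 2 µM. Its gap was 10.3-fold, to the mesenchymal-like library.

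Zbp1, a sensor of Z-form nucleic acid linked to cell death, was separated by 1.21-fold only. It had 10.5, 10.7 and 8.87 CPM at days 0, 4 and 9, 4.39, 3.47, 7.33 and 6.19 CPM from DMSO to 2 µM, and at most 0.724 CPM in the other 5 libraries, with 0 counts in GFP-low and GFP-mid. Ifi204, of the DNA-binding p200 family, had 9.72, 21.5 and 17.8 CPM at days 0, 4 and 9 and at most 4.99 elsewhere. Its relatives Ifi203 and Ifi205 were low throughout, with at most 4.15 and 2.54 CPM. Ifi204 and Ifi205 had expected counts that were not whole in 6 and 8 libraries, so reads were shared with similar genes and their values are uncertain.

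The OAS family makes 2′-5′ oligoadenylates that activate RNase L. Oas1a was its highest member by length-scaled level in the feeder-removal libraries, with 258, 293 and 255 TPM, and Oas2 and Oas3 were the lowest there, at 1.51 to 2.64 TPM. In CPM, Oas1a had 274, 309 and 249 at days 0, 4 and 9, 7.98 and 5.07 at low and high Matrigel, 4.64, 6.89 and 5.31 across rising GFP, and 10.2, 13.9, 15.7 and 15.1 from DMSO to 2 µM. The gap was 15.9-fold. Its expected counts were not whole in any library, so the division of reads with its near-identical relatives is uncertain. In the 9 other libraries Oasl2, an OAS-like protein, was the highest of the family by length-scaled level, with 8.92 to 22.7 TPM. Its CPM were 77.0, 81.2 and 77.8 at days 0, 4 and 9 and 16.6 to 43.1 elsewhere, a gap of 1.79-fold.

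Both transcription factors were separated. Stat2, a transcription factor of type I signalling, had 73.1, 70.1 and 85.3 CPM at days 0, 4 and 9, and the other 9 libraries ran from 16.4 (mesenchymal-like) over a median of 24.2 to 36.1 (DMSO). Irf7, which amplifies type I interferon production, had 13.9, 11.8 and 8.05 CPM at days 0, 4 and 9 and at most 1.16 CPM elsewhere. Irf7 was thus near the floor in the 9 other libraries, while Stat2 was measured there with 68 counts or more.

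Feedback and modifying enzymes included one of the widest gaps and a gene with none. Usp18, the protease that removes ISG15 and dampens receptor signalling, had 347, 359.9 and 310.2 CPM at days 0, 4 and 9 and 1.63 to 5.24 CPM in the 9 others, a gap of 59.2-fold. Parp9, an ADP-ribosyltransferase that works with the ubiquitin ligase Dtx3l, had 278, 309.7 and 293 CPM at days 0, 4 and 9, 17.4 and 23.7 at low and high Matrigel, 20.8, 22.5 and 21.02 across rising GFP, and 28.5, 37.2, 34.0 and 26.8 from DMSO to 2 µM. Dtx3l had 192, 173 and 190.1 CPM in feeder removal and 29.1 to 43.9 elsewhere. These 2 genes lie side by side in the mouse genome and had expected counts that were not whole in 10 and 11 libraries. Trim25, the ubiquitin ligase that acts on RIG-I, had 64.8, 63.1 and 69.8 CPM at days 0, 4 and 9 and 48.7 to 78.3 CPM elsewhere, so the feeder-removal values lay within the range of the others.

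The antiviral effectors held the gene with the highest length-scaled level. Bst2 (tetherin), which holds budding virus at the membrane, had 856, 853 and 853 TPM at days 0, 4 and 9, the most of the 38 there, and it was also first in the 2 density and 3 GFP libraries. In CPM, Bst2 had 328, 320.4 and 299.9 at days 0, 4 and 9, 26.5 and 25.4 at low and high Matrigel, 27.7, 40.6 and 40.6 across rising GFP, and 31.3, 33.7, 31.4 and 47.6 from DMSO to 2 µM. Its lowest feeder-removal value was 6.29-fold above its highest other. Rsad2 (viperin) had 162, 161 and 182 CPM in feeder removal and 2.26 to 10.2 elsewhere. Ifit3, of a family that binds foreign RNA ends, had 142, 145 and 138 CPM and at most 1.92 CPM (11 counts) elsewhere, a gap of 71.8-fold.

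Other effectors kept a readable level outside feeder removal. Adar, which edits adenosine in double-stranded RNA, had 202, 227 and 229 CPM at days 0, 4 and 9 and 47.3 to 70.4 in the 9 others. Samhd1, which breaks down deoxynucleotides, had 166, 191 and 169 CPM against 70.7 to 109.9, a gap of 1.51-fold. Rtp4 and Ifi44 were low elsewhere: Rtp4 had 155, 171 and 145 CPM against at most 5.39, and Ifi44 had 41.6, 39.4 and 51.7 against at most 1.80. Mx1 had at most 1.604 CPM in any library and its row rests on a predicted non-coding transcript model, whereas Mx2 had 12.6, 18.4 and 18.1 CPM in feeder removal and at most 2.12 elsewhere.

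The levels of the interferon-gamma type GTPases differed between the 3 experiments outside feeder removal as well. Gbp2, a guanylate-binding protein that coats pathogen compartments, had 302, 276 and 298 CPM at days 0, 4 and 9, 70.2 and 64.9 at low and high Matrigel, 8.78, 15.4 and 16.6 across rising GFP, and 134, 213, 225 and 232 from DMSO to 2 µM UNC0638. Its lowest feeder-removal value was 1.19-fold above the 2 µM library. Gbp3, of the same family, had 437, 441 and 473 CPM at days 0, 4 and 9, 41.5 and 36.2 at low and high Matrigel, 8.53, 11.96 and 17.9 across rising GFP, and 67.1, 95.5, 119.5 and 129 from DMSO to 2 µM. Both genes were thus highest in feeder removal, next on MEF feeders with DMSO or UNC0638, and lowest in the GFP fractions.

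Igtp (Irgm3), an immunity-related GTPase that regulates the others on vacuole membranes, had 392, 446 and 383 CPM at days 0, 4 and 9, 13.4 and 12.6 at low and high Matrigel, 10.0, 15.4 and 18.6 across rising GFP, and 18.8, 23.9, 32.5 and 23.6 from DMSO to 2 µM. Its gap was 11.8-fold. Iigp1 was low everywhere, with 4.67, 3.98 and 5.53 CPM in feeder removal, at most 0.916 elsewhere, and 0 counts in 6 libraries. The 4 GTPases made up 22.8% to 23.7% of the summed TPM of the 38 genes in feeder removal, 26.4% and 23.8% at low and high Matrigel, 8.30%, 10.4% and 12.8% across rising GFP, 31.1% with DMSO and 40.6%, 45.5% and 41.99% at 0.5, 1 and 2 µM. In the DMSO and UNC0638 libraries Gbp2, not Bst2, had the highest TPM of the 38.

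**Figure D2:**
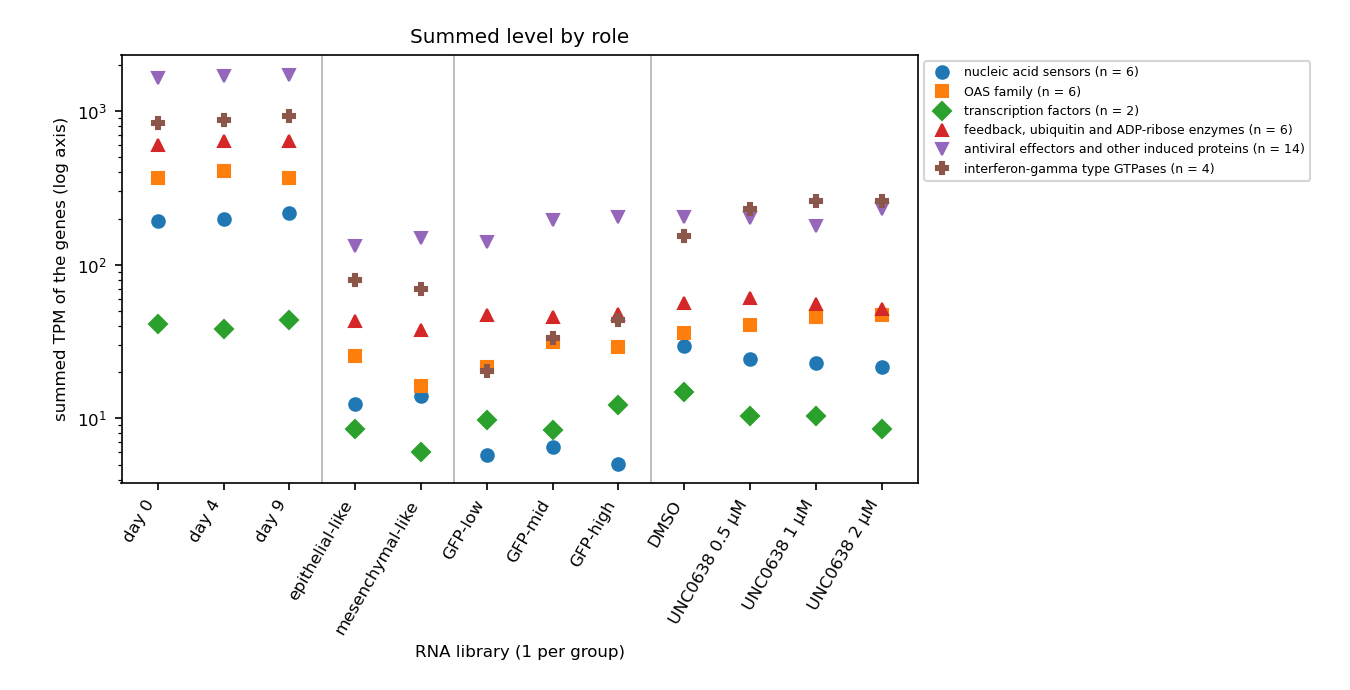
Summed TPM (log axis) of the genes of each of 6 roles in the 12 libraries, 1 point per role and library, with vertical lines between experiments. Every role is highest at days 0, 4 and 9; the GTPases lie at 20.3 to 43.6 TPM in the GFP fractions and at 154 to 261 TPM in the DMSO and UNC0638 libraries.

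Within feeder removal the genes lay at similar levels in the 3 libraries. Of 32 genes with at least 50 counts at each day, 29 had less than 1.5-fold between the highest and lowest day, with a median of 1.16-fold, a minimum of 1.01-fold for Ifi35 and a maximum of 2.21-fold for Ifi204. This spread was not computed over all genes, so whether it is particular to these genes is not known. At day 4 against day 0, 1 of 36 genes was at least 2-fold higher, against 1.25% of all genes, and 0 were lower, against 1.03%. That gene was Ifi204, with a log2 ratio of CPM + 1 of 1.07. Its 95% counting interval, which is of the count ratio without the added 1, was 0.77 to 1.54. At day 9 against day 0, 0 were at least 2-fold higher, against 1.62% of all genes, and 1 was lower, against 0.979%. It was Ifi203, at -1.38 on 12 and 32 counts. Between days 4 and 9, 0 of 36 passed 2-fold in either direction, against 1.74% of all genes. The shares are near the background in each of these comparisons, which share libraries. Next to Ifi204, the widest spreads were 1.72-fold for Irf7, lowest at day 9, and 1.62-fold for Eif2ak2 (PKR), the kinase that halts translation on double-stranded RNA, with 18.4, 23.8 and 29.8 CPM at days 0, 4 and 9.

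Outside feeder removal, 4 to 14 of the 38 genes had 3 counts or fewer in each library, and several of the 36 passed the filter through days 0, 4 and 9 alone. Counts over the 36 in the comparisons below are therefore descriptions, and nothing is read from their distance to the share of all genes. Between the Matrigel densities, 3 of the 4 GTPases, Gbp2, Gbp3 and Igtp, were close, and 4 effectors and 1 sensor were at least 2-fold higher in the mesenchymal-like library. Of the 38 genes, 14 had 3 counts or fewer in the epithelial-like library and 10 in the mesenchymal-like library. At least 2-fold higher were 5 of 36 genes, against 10.7% of all genes, and 0 were lower, against 1.78%. Scaled by library totals alone, 5 were higher and 1 lower. Lgals3bp, a secreted glycoprotein that binds galectin-3, had 2.35 CPM in the epithelial-like and 18.6 CPM in the mesenchymal-like library, a log2 ratio of 2.55 (interval 2.03 to 4.10). Ifi35, an interferon-induced leucine-zipper protein, had 4.22 and 15.9 CPM, a log2 ratio of 1.70 (1.15 to 2.76). Ifit2, Rtp4 and Ddx58 had ratios of 1.68, 1.19 and 1.15 on at most 34 counts. Gbp2, Gbp3 and Igtp had log2 ratios of -0.11, -0.19 and -0.09, whose counting intervals include 0. With ratios centred on germ cell markers instead, which shifts all genes by 0.28, those 3 were above 0. The summed fibroblast markers were 264 and 5332 CPM in these libraries, and their part in the result was not tested.

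**Figure D3:**
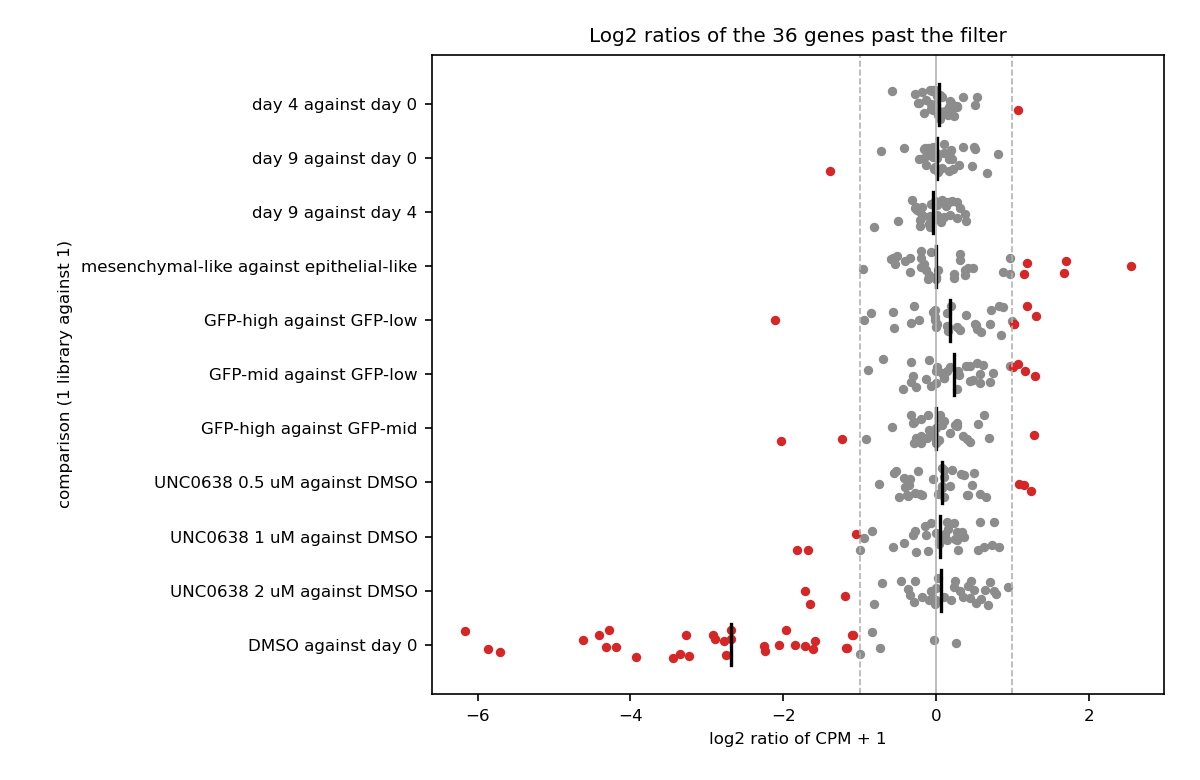
Log2 ratios of CPM + 1 of the 36 genes past the filter in 11 comparisons of 1 library with 1 other, with 1 point per gene, red points at 2-fold or more (dashed lines) and a black bar at the median. The 10 comparisons within experiments centre near 0, with Lgals3bp at 2.55 and -2.11 as the widest points, and DMSO against day 0 centres at -2.68.

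Across the GFP fractions 3 of the 4 GTPases, Gbp2, Gbp3 and Igtp, had higher values with more GFP, none of them by 2-fold with TMM scaling (edgeR's adjustment of library sizes, used for every CPM here). The other, Iigp1, had 0 counts in all 3 fractions. Genes of other roles rose in the same order too: 10 of the 36 rose from GFP-low over GFP-mid to GFP-high, and 3 fell. Besides the GTPases, the 10 were Usp18, Ifit3, Mx2, Eif2ak2, Samhd1, Adar and Rtp4, and the 3 were Ddx58, Trim25 and Lgals3bp. No share of all genes is given for this order, and nothing is read from these counts. Gbp3 had a log2 ratio of 0.99 (0.659 to 1.501), Gbp2 of 0.84 (0.50 to 1.34) and Igtp of 0.83 (0.50 to 1.29), and in all 3 GFP-mid lay between. Their signs were the same under every scaling tried; centring on germ cell markers shifted all genes by 0.30 in this comparison and put Gbp3 at 1.30, Gbp2 at 1.15 and Igtp at 1.13, past 2-fold, and TPM put Gbp3 at 1.09. Adar had 48.5, 66.6 and 70.4 CPM from GFP-low to GFP-high, and Bst2 27.7, 40.6 and 40.6, with no step between the upper 2.

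At the 2-fold line, 4 of 36 genes were higher in GFP-high than in GFP-low, against 6.94% of all genes, and 1 was lower, against 2.59%. Centred on germ cell markers, 10 were higher and 1 lower. Eif2ak2 had 3.51, 8.08 and 9.34 CPM from low to high, a log2 ratio of 1.20 (0.78 to 2.08). Rtp4, Mx2 and Ifi35 were the other 3, on at most 48 counts, and Rtp4, with 0 counts in GFP-low, was at least 3.95-fold higher against the floor of 3 counts. Lgals3bp was the lower one, with 17.6, 16.5 and 3.29 CPM and a log2 ratio of -2.11 (-3.03 to -1.85). At GFP-mid against GFP-low, 4 genes were at least 2-fold higher, against 3.38% of all genes: Rsad2 at 1.17 on 80 and 18 counts, Eif2ak2 at 1.01 on 102 and 28 counts, and Trim30 and Oas3 on fewer. At GFP-high against GFP-mid, 1 gene was higher (Ifi35, 1.28), against 1.32% of all genes, and 2 were lower, against 1.52%. Those 2 were Lgals3bp at -2.03 (-2.92 to -1.77) and Ifi204 at -1.22 on 1 and 20 counts.

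All 14 myeloid markers had reads in GFP-low, with a sum of 1955 CPM there against 229 in GFP-high. Lgals3bp was at least 2-fold lower in GFP-high, where that sum was lower too. The part of other cells in this and in the GTPase values was not tested.

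**Figure D4:**
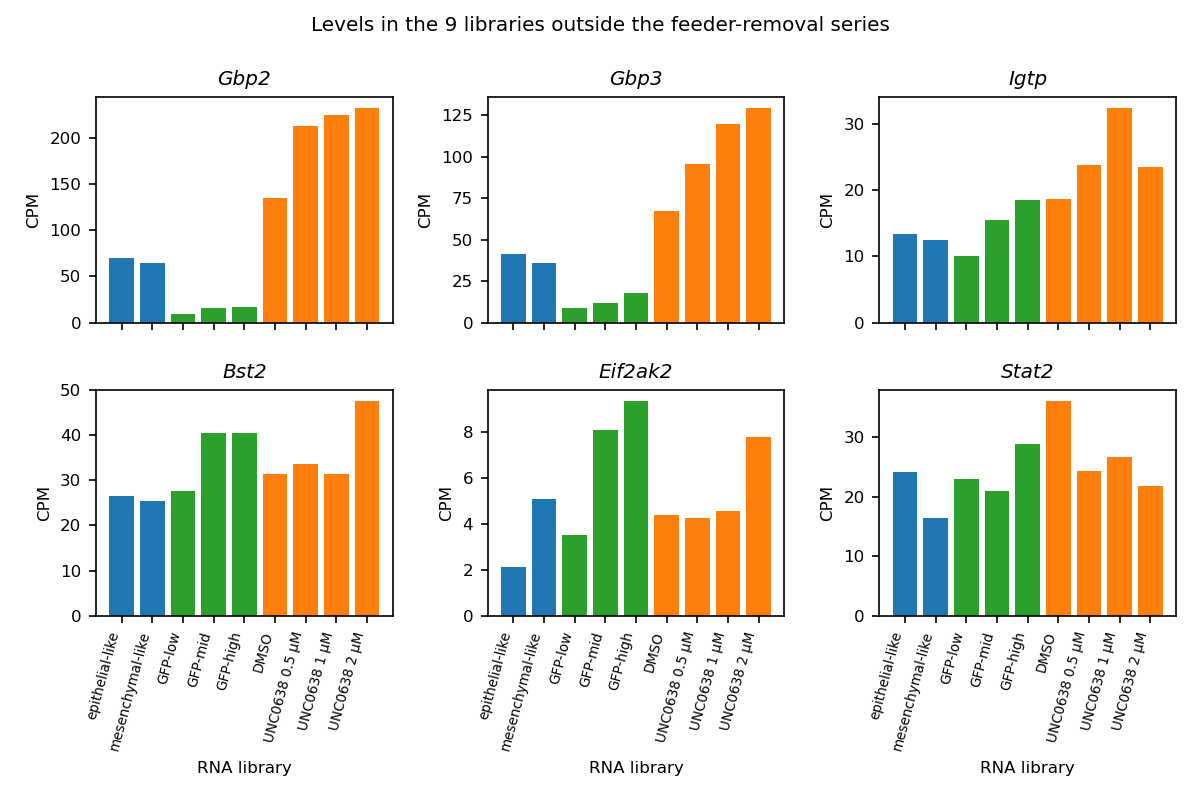
CPM (bars from 0, 1 library each) of Gbp2, Gbp3, Igtp, Bst2, Eif2ak2 and Stat2 in the 9 libraries outside feeder removal, with colours for the 3 experiments. Gbp2 steps from 134 with DMSO to 232 at 2 µM and lies at 8.78 to 16.6 in the GFP fractions, while Stat2 is highest with DMSO at 36.1.

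With UNC0638, 3 of the 4 GTPases, Gbp2, Gbp3 and Igtp, had higher values than with DMSO at each dose, none of them by 2-fold with TMM scaling. Genes of other roles did so too: 12 of the 36 were above DMSO at each dose, and 7 were below it at each. Besides the GTPases, the 12 were Oas1a, Oasl2, Trim30, Parp14, Dtx3l, Mx2, Bst2, Samhd1 and Rtp4. No share of all genes is given for this pattern, and nothing is read from these counts. The 3 comparisons share the DMSO library, so its counting error enters each of them. The summed fibroblast markers were 2631 CPM with DMSO and 873, 366 and 461 with 0.5, 1 and 2 µM, and their part in the values of the GTPases and the other genes was not tested. Iigp1, the other GTPase, had 4 counts or fewer in each of these libraries, and its ratios are not given. Gbp3 had log2 ratios of 0.50 (0.31 to 0.71), 0.82 (0.64 to 1.03) and 0.94 (0.75 to 1.15), and Gbp2 of 0.66 (0.52 to 0.80), 0.74 (0.61 to 0.88) and 0.79 (0.65 to 0.93). Igtp had 0.33, 0.76 and 0.32, and its interval was above 0 at 1 µM (0.43 to 1.16) and included 0 at the other doses. When ratios were centred on germ cell markers, Gbp3 had 1.12 at 2 µM, past 2-fold.

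Among transcription factors, Stat2 was lower at each dose, with log2 ratios of -0.56, -0.42 and -0.71 whose counting intervals lie below 0. Bst2 had 31.3 CPM with DMSO and 47.6 at 2 µM, a log2 ratio of 0.59 (0.30 to 0.91), and ratios of 0.10 and 0.00 at the lower doses. Oas1a had 0.41, 0.58 and 0.53, with intervals above 0 at 1 and 2 µM.

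At 0.5 µM, 3 genes were at least 2-fold higher, against 1.58% of all genes, and 0 were lower, against 2.13%. Those 3 (Oas1b, Mx2 and Rtp4) had 28 counts or fewer. At 1 µM, 0 were higher, against 2.59%, and 3 were lower, against 4.12%. At 2 µM, 0 were higher, against 3.42%, and 3 were lower, against 3.59%, or 1 and 3 with the centring on germ cell markers. The same 3 genes were lower at both doses: Lgals3bp, Ifi204 and Ifi44. Lgals3bp had 27.7 CPM with DMSO and 21.8, 7.16 and 7.79 at 0.5, 1 and 2 µM, with log2 ratios of -1.82 (-2.49 to -1.44) at 1 µM and -1.71 (-2.42 to -1.28) at 2 µM, while Ifi204 and Ifi44 had at most 25 counts. The fibroblast marker sums given above were lower at these doses too, and also at 0.5 µM, where Lgals3bp was not past 2-fold.

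**Figure D5:**
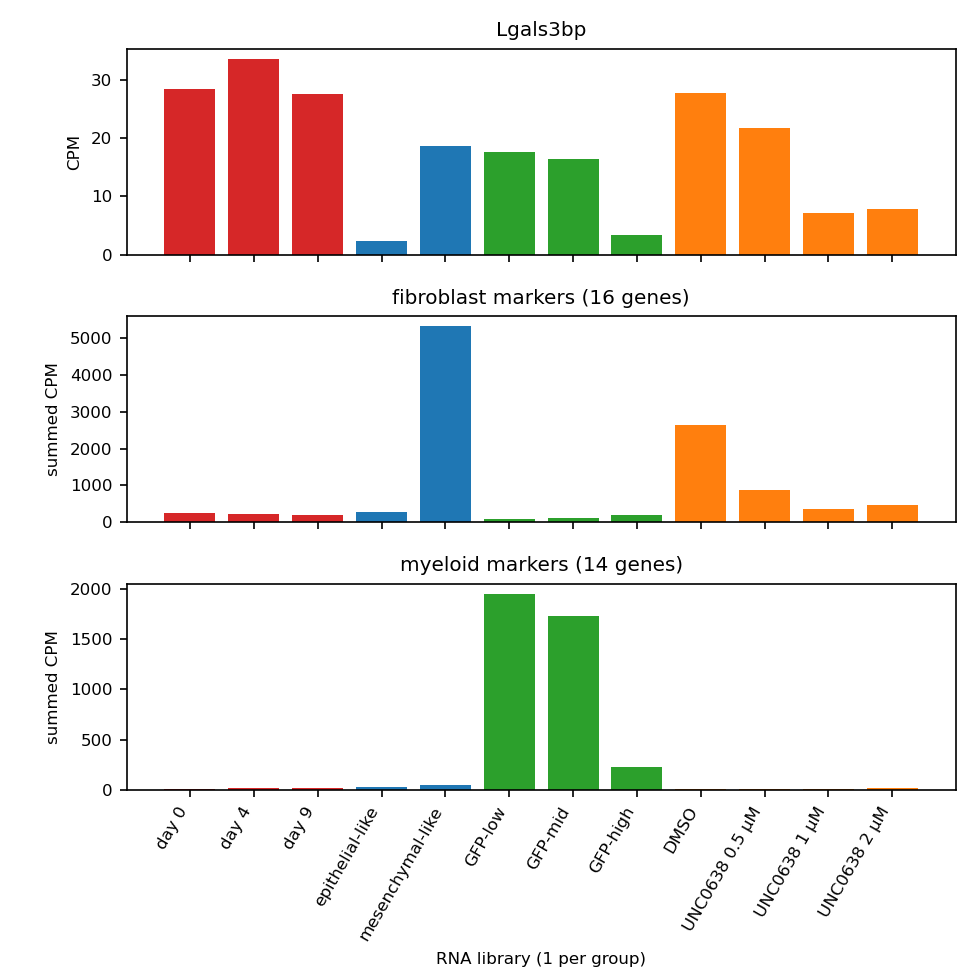
CPM of Lgals3bp (top), summed CPM of 16 fibroblast markers (middle) and summed CPM of 14 myeloid markers (bottom) in the 12 libraries, bars from 0 with 1 library each. Outside feeder removal, Lgals3bp is at 16.5 to 27.7 CPM in the mesenchymal-like, GFP-low, GFP-mid, DMSO and 0.5 µM libraries and at 2.35 to 7.79 CPM in the other 4. Its lowest value at days 0, 4 and 9 is next to its DMSO value, with a log2 gap of -0.008 in CPM + 1. The fibroblast sums at days 0, 4 and 9 are 207 to 245 CPM, and the myeloid sums at most 13.2 CPM.

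Upstream of these genes, transcripts of the interferons themselves were close to absent. Of 21 ligand genes in the tables, 19 had 0 counts in every library, among them Ifnb1 and Ifng, and the other 2, Ifna13 and Ifnz, had at most 3 counts in any library. All 6 receptor chains listed had reads in every library, and the groups overlapped for 5 of them. Il28ra (Ifnlr1), a chain of the type III receptor, was the separated one, with 12.7, 11.68 and 13.99 CPM at days 0, 4 and 9 and 2.75 to 9.60 elsewhere, a gap of 1.22-fold. Ifnar1, a chain of the type I receptor, had 126, 131 and 149 CPM at days 0, 4 and 9 and 92.7 to 135 CPM elsewhere, and Ifngr1, a chain of the type II receptor, had 39.7, 43.8 and 39.8 CPM against 35.2 to 80.9.

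Other genes of the response, from lists that were also drawn up with earlier results known, were set in the same contrast, in which 14.4% of all genes were separated and 0.664% by at least 2-fold. Of 37 further interferon-stimulated genes past the filter, 28 were separated and 17 by at least 2-fold, such as Trim21, an antibody receptor and ubiquitin ligase, with 159 to 182 CPM in feeder removal and 15.0 to 26.0 elsewhere. Of 12 genes of MHC class I presentation, 11 were separated and 4 by at least 2-fold. Tap1, a subunit of the peptide transporter, had 61.2, 65.8 and 55.2 CPM at days 0, 4 and 9 and 2.01 to 17.6 elsewhere, and B2m, the light chain of MHC class I, had 576 to 637 CPM against 69.0 to 289. Of 14 sensing adaptors, kinases and constitutive factors, 3 were separated, a share near that of all genes, and 0 by 2-fold, with Irf3 at 34.98 to 42.1 CPM in feeder removal and 30.8 to 60.3 elsewhere. Of 6 pathway inhibitors, 2 were separated, and Socs1, which blocks JAK kinases, had 91.9 to 107 CPM against 18.2 to 72.2.

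For markers of other cells the summed levels are given, since cells present in any of the 9 other libraries keep their markers from being separated. Markers of plasmacytoid dendritic and lymphoid cells summed to 18.5 to 20.8 CPM in feeder removal and 18.7 to 26.6 elsewhere, and those of Sertoli, Leydig and endothelial cells to 32.7 to 42.003 and 24.6 to 46.96 CPM. Of 12 germ cell markers 4 were separated, and 0 by at least 2-fold; these 4 (Ddx4, Nanos3, Tex101 and Mael) are named after their values were seen. In the feeder-removal libraries the myeloid markers summed to at most 13.2 CPM. Of the 14, 5 had 0 counts in all 3 (Csf1r, Mpeg1, Emr1, Tyrobp and Ctss) and 9 had reads in at least 1, the highest being Cd68 at 4.72 to 5.33 CPM, Cd14 at 2.33 to 3.74 and Fcer1g at 2.77 to 3.37. The fibroblast sums there were 207 to 245 CPM, below those of all DMSO and UNC0638 libraries.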

How the data were processed

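The 12 RNA libraries were made with a modified Smart-seq2 protocol, per the labels' protocols. Trim Galore, RSEM and the mouse build mm10 are named in the submitters' processing notes; their versions, the aligner and the annotation are not given in the sources used here. The authors deposited, per the file headers, an expected count (RSEM's estimated reads) for each gene, not normalized. They also deposited TPM values, scaled by transcript length and to a fixed total in each library, per the file headers. Neither the FPKM column nor the 4 ATAC-seq samples were analysed here.

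Expected counts were rounded to whole numbers and scaled to CPM with edgeR 4.0.16 TMM factors (0.912 to 1.07) in R 4.3.3. The 14301 genes whose mean reached 1 CPM were kept. A comparison is the log2 ratio of CPM + 1 between 2 libraries, called at 2-fold; the added 1 understates the change of low genes. The interval beside a ratio is the 95% Clopper-Pearson interval for how the reads divide between the libraries, without the added 1. Reads carry no molecular identifiers, so intervals and the floor of 3 counts cover counting error only. Levels of different genes were compared in TPM. Of the 38 genes, 27 had whole counts (to within 0.005) in every library and 11 shared reads with other genes in at least 1.

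The genes, their roles, the other gene lists and the 2-fold rule were chosen with earlier results of these data known. Any listed gene could be named: the highest and lowest of a role by TPM, and in a comparison first those called with at least 50 counts in the higher library. Promoters were shown in order of TPM at day 0. Alternatives were DESeq2 1.42.0 size factors, library totals, TPM, pseudocounts of 0.1 and 5 CPM, no filter, filters at 10 CPM or over the 2 libraries compared and, chosen after seeing the data, centring on germ cell markers and, for the separation counts, leaving out the mesenchymal-like, GFP-low and GFP-mid libraries. 1 gene of the pathway is not reported here. The steps were tested on simulated data. Promoter windows came from a RefSeq table of GRCm38.p6. Scripts ran in Python 3.11.15 (matplotlib 3.10.9, scipy 1.17.1, pandas 2.3.3 and numpy 2.4.6).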

Additional observations from a re-analysis of the deposited data

How the results depend on the processing

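Of the log2 ratios of called genes under the alternatives, 453 stayed within their counting interval and 56 did not; none of them changed sign. Of 216 counts and medians recomputed under the alternatives, 187 stayed within 1.5 times (counts) or within the median counting interval of the genes (medians) and 29 did not. The counts of separated genes were among those that did, also without the mesenchymal-like, GFP-low and GFP-mid libraries. With a pseudocount of 0.1 CPM the genes past 2-fold were 1 at day 9 against day 4, 12 at high against low Matrigel, 15 at GFP-high against GFP-low, 12 at GFP-mid against GFP-low, 8 at GFP-high against GFP-mid, and 6, 9 and 5 at 0.5, 1 and 2 µM UNC0638. With 5 CPM they were 0 at days 4 and 9 against day 0, 2 at high against low Matrigel, 1, 0 and 1 in those GFP comparisons, and 0, 1 and 1 with UNC0638, and the median of DMSO against day 0 was -1.73. Without the filter it was -2.47, and day 4 against day 0 had 2. The filter at 10 CPM gave 0, 0 and 1 for day 4, day 9 and 0.5 µM, and that over the 2 libraries gave 2 for day 4 and 3 for GFP-high against GFP-low. TPM gave 0 for day 9 and 1 for GFP-mid against GFP-low. Centring on germ cell markers gave 8 for Matrigel and 11 for GFP-high against GFP-low; it shifted all genes by 0.28 and 0.30 there, 0.25 at GFP-mid against GFP-low, 0.11 at GFP-high against GFP-mid, -0.11 at 0.5 µM and 0.18 at 2 µM.

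Genes with few counts decide most of these counts, and calls under 50 counts rest on few reads of 1 library per group and are not relied on. No paired analysis was possible because each RNA group has 1 library; the numbers 1 and 2 belong to ATAC-seq samples, which were not analysed here.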

Other observations

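The rows named by other symbols held values for 4 genes of the response that were not counted above. Isgf3g, which by its transcript is Irf9, a DNA-binding factor of type I signalling, had 32.8, 35.2 and 41.7 CPM at days 0, 4 and 9 and 3.86 to 10.6 CPM in the 9 other libraries. Tyki (Cmpk2), a mitochondrial nucleotide kinase, had 50.8, 51.88 and 54.996 CPM against 0.469 to 2.60. The row named Fbxo39, whose transcript is that of Xaf1, a pro-apoptotic factor, had 9.20, 6.35 and 6.10 CPM against at most 1.15. D11Lgp2e (Dhx58 or LGP2), a helicase that regulates the RNA sensors, had 7.0005, 8.63 and 7.24 CPM in feeder removal and 3.14 to 12.9 elsewhere, so its groups overlapped.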
